A study of Mus musculus with 2 samples.

Results

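The dual specificity phosphatase genes Dusp1, Dusp3, Dusp4, Dusp6, Dusp7, Dusp11, Dusp14 and Dusp16 and the Sprouty genes Spry2 and Spry4 were examined in transfected NIH 3T3 cells, an established mouse embryonic fibroblast line. A probe set, the group of array probes summarised as 1 signal, was taken where the platform annotation gave it exactly 1 gene symbol and that symbol was one of these 10. This found 15 probe sets for 9 of the 10 genes, out of 12393 genes named in this way. No probe set carried the symbol Dusp4 alone, and Dusp4 is not analysed here.

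Cells were transfected by Lipofectamine with the plasmid pHA-CMV-ATCE1-C-del or with the empty vector pHA-CMV, both grown in DMEM, and total RNA was taken 48 hours later. ATCE1, the product of the gene with the present symbol Creb3l4, belongs to the CREB group of leucine zipper transcription factors. ATCE1-C-del lacks its C-terminal part, a form that the series text calls nuclear. The insert was driven by the vector's CMV promoter in a transient transfection, and the sources used here do not give the share of cells that took up plasmid. Each group was 1 Affymetrix array, so values carry no replicate error and comparisons carry no test. Fewer expressing cells and less RNA per cell cannot be told apart in such bulk RNA.

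MAP kinases are switched on by phosphorylation of a threonine and a tyrosine in their activation loop, and dual specificity phosphatases switch them off by removing both phosphates. Several of these phosphatase genes, and the Sprouty genes, are themselves transcribed in response to ERK signalling, so that the pathway limits its own output. In fibroblasts, Dusp1 is a classical immediate early gene of the serum and stress response, and its promoter is a known target of CREB proteins through cAMP response elements.

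The start regions of 3 genes are shown because Dusp1 carries the element that CREB proteins bind and Dusp6 and Spry2 had the highest ratios among the measured genes of the set. Each sequence runs 5′ to 3′ on the gene's strand, from 250 bases before to 50 bases after the annotated start, and comes from RefSeq on GRCm38.p6. Capitals mark every match to the cAMP response element TGACGTCA or its core site TGACG on either strand. The windows lie at chr17:26508423-26508722, minus strand, for Dusp1, at chr10:99262981-99263280, plus strand, for Dusp6, and at chr14:105896770-105897069, minus strand, for Spry2.
Dusp1: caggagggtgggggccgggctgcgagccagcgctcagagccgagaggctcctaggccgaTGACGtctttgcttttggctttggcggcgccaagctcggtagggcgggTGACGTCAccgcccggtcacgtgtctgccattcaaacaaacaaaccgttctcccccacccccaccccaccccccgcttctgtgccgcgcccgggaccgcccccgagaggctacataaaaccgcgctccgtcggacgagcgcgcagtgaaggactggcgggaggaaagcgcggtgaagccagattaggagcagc
Dusp6: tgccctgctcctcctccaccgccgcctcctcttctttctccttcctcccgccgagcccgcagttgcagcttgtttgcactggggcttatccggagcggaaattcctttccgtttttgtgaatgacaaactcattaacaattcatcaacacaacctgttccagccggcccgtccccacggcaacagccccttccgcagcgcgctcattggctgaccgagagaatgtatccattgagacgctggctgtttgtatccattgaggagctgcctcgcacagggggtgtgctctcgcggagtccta
Spry2: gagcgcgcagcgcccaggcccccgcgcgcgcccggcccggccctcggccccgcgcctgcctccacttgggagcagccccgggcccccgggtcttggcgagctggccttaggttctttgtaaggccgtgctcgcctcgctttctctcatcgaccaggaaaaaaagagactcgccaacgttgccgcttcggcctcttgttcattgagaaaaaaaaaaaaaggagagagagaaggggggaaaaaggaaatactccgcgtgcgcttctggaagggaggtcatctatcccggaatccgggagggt

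RefSeq gave such a window for 8 of the 10 genes, all but Dusp4 and Spry4. The full element TGACGTCA was found in 1 of the 8, that of Dusp1, beginning 143 bases before the start, and in 1.79% of 32851 windows of the same length. Each full element also contains the core site on both strands. The core site TGACG, searched on both strands, was found in 3 of the 8 windows and in 20.8% of all windows. Dusp1 had a separate copy beginning 191 bases before the start. Dusp16 had a copy beginning 70 bases before the start and Dusp11 a copy on the opposite strand, whose leftmost base lay 33 bases before the start. The AP-1 site TGACTCA on either strand and the CArG box, which serum response factor binds, were in none of the 8 windows and in 5.20% and 1.63% of all windows. A match describes letters in these windows only.

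**Figure D1:**
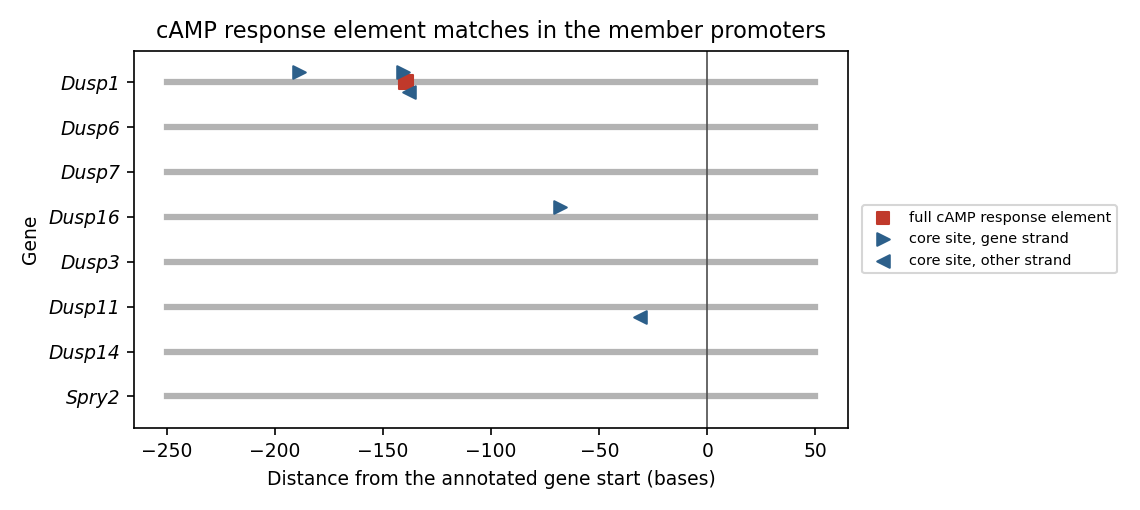
Positions of the full cAMP response element (square) and its core site (triangles, by strand) in the windows from 250 bases before to 50 bases after the start of 8 genes, with distance in bases on the horizontal axis and 1 line per gene. Only the Dusp1 line carries a square, and the lines of Dusp6, Dusp7, Dusp3, Dusp14 and Spry2 carry no mark.

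The deposited values are MAS5 signals, a brightness per probe set on a linear scale. Each array's median, 77.4 for ATCE1-C-del and 75.9 for empty vector, served as a floor to which lower signals were raised before the ATCE1-C-del array was set over the empty vector array as a log2 ratio. A gene counts as measured if its brightest probe set reached this floor on at least 1 array, and the fold is a lower bound where only 1 array reached it. Of 12393 genes, 6806 were measured. Their median log2 ratio was -0.01, and the middle 95% of the 6521 genes above the floor on both arrays ran from -0.47 to 0.44. Creb3l4 lay under the floor on both arrays, at 18.0 in ATCE1-C-del cells and 20.7 in empty vector cells, and the sources used here do not say whether its probes lie inside the truncated insert. All 14 fibroblast markers were measured, 0 of 10 epithelial markers and 2 of 8 blood cell markers, Cd14 at 115.7 against 104.1 and Cd68 at 81.5 against 50.8, the latter under the floor. Of the 14 fibroblast markers, 9 lay below 0 (median log2 ratio -0.08) and 1 was past 1.5-fold, the matrix gene Postn, at 1123.5 against 1779.7 (-0.66). The brightest of them, Vim, Col1a2 and S100a4, stood at 0.08, 0.12 and 0.13. The only spread between repeat readings came from different probe sets of 1 gene. These share the same 2 arrays, so this spread holds no variation between transfections, RNA samples or arrays. It was taken over 2451 genes with a pair above the floor on both arrays. A probe set's log2 ratio had an SD of 0.20, and 60.2% of pairs lay on the same side of 0.

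Of the 9 genes, 8 were measured, all above the floor on both arrays. In log2 ratio 7 of the 8 were above 0 and Dusp3 was below 0, with a median of 0.31. Over all measured genes, 48.7% were above 0. Dusp11 counts here by its brighter probe set, while its other one lay below 0. Without Dusp11, 6 of 7 were above 0 with a median of 0.29, and with the mean of all measured probe sets of each gene the median of the 8 was 0.20. At 1.5-fold, the size used for a call, 1 of the 8 was higher with ATCE1-C-del, where 0.926% of all measured genes were, and 0 of the 8 were lower, where 1.07% were. Over all measured genes this was 63 higher and 73 lower. It became 47 and 90 when the arrays were scaled to their medians and 407 and 13 when they were scaled to the hybridisation controls, which moved the median of all measured genes to 0.24. At a lower size, a log2 ratio of 0.322, 3 of the 8 were higher, Dusp6, Spry2 and Dusp14, with Dusp11 just under it at 0.318. Of all measured genes 6.69% were higher at that size and 7.89% lower, and 0 of the 8 were lower.

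**Figure D2:**
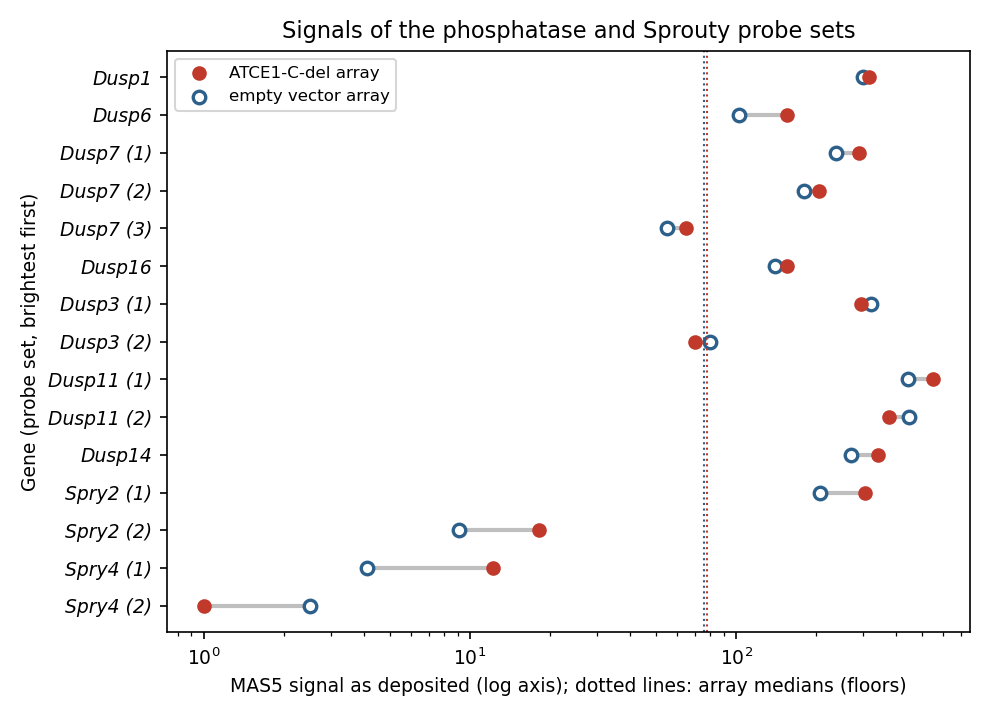
Deposited MAS5 signals on a log axis for the 15 probe sets, 1 row each with several probe sets of a gene numbered from the brightest, filled for the ATCE1-C-del array and open for the empty vector array; dotted lines are the floors of 77.4 and 75.9. Dusp6 and the brighter Spry2 probe set show the widest gaps above the floors, and both Spry4 probe sets lie far to the left of them.

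The MAP kinase phosphatases proper had 4 measured genes, Dusp6, Dusp7, Dusp1 and Dusp16, with a median log2 ratio of 0.22. Dusp6 encodes a cytoplasmic phosphatase that binds and inactivates ERK and is a widely used marker of ERK pathway output. Its single probe set read 155.4 in ATCE1-C-del cells and 102.1 in empty vector cells, a log2 ratio of 0.61 or 1.52-fold higher, just past the 1.5-fold size. Scaling the arrays to their medians gave 0.58, under that size. The empty vector signal was only 1.35 times its floor. Among 1403 genes of like mean signal (within 0.5 in log2 and above the floor on both arrays, a comparison chosen after the data were seen), 2.07% were at least 1.5-fold higher, and the middle 95% ran from -0.56 to 0.53.

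Dusp7, which encodes the close cytoplasmic relative of Dusp6 and also acts on ERK, was read by 3 probe sets. The brightest gave 289.7 in ATCE1-C-del cells and 236.4 in empty vector cells, a log2 ratio of 0.29 (1.23-fold). The next gave 205.2 and 180.6, a log2 ratio of 0.18. The dimmest lay under the floor on both arrays, at 64.6 and 54.8, and no ratio is given. Both measured probe sets lay above 0, by less than 1.5-fold. The 3 read the same gene and are not independent, and their names mark them as probe sets that can match several transcripts.

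Dusp1 encodes the nuclear phosphatase that acts on p38, JNK and ERK and is the gene of the set with the full cAMP response element in its start region. Its probe set read 316.0 in ATCE1-C-del cells and 300.5 in empty vector cells, a log2 ratio of 0.07 (1.05-fold). The signals were about 4 times the floors, at 4.08 and 3.96. The ratio was smaller than the SD of 0.20 between probe sets of 1 gene. Dusp16 encodes a phosphatase that acts mainly on JNK and p38, and its window held a core site. It read 155.7 and 140.1, a log2 ratio of 0.15 (1.11-fold), also within that SD. The name of its single probe set marks it as one that can match several transcripts. With 1 array per group, neither the Dusp1 nor the Dusp16 value shows that the transcript was unchanged.

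The other 3 phosphatases are small atypical members that lack the MAP kinase binding domain of the former. Dusp14, which encodes a phosphatase known from T cell signalling, read 340.2 in ATCE1-C-del cells and 269.2 in empty vector cells, a log2 ratio of 0.34 (1.26-fold) on its single probe set. The name of that probe set marks it as one that can match several transcripts. Dusp3 encodes a phosphatase that can act on ERK and JNK. Its brighter probe set read 293.6 and 320.2, a log2 ratio of -0.13 (1.09-fold lower), which turned to 0.12 with scaling to the hybridisation controls. Its second probe set read 70.0 and 79.7, at least 1.03-fold lower. Dusp3 was the only measured gene of the set below 0 on its brightest probe set.

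Dusp11 encodes a phosphatase that acts on the 5′ end of RNA and is no MAP kinase phosphatase, so the name of the set does not describe it. Its 2 probe sets disagreed. The brighter read 550.1 in ATCE1-C-del cells and 441.3 in empty vector cells, a log2 ratio of 0.32. The other read 373.9 and 447.5, a log2 ratio of -0.26 (1.20-fold lower), and their mean was 0.03. All 4 signals were well above the floors, so no direction is given for Dusp11.

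The Sprouty proteins are not phosphatases. They are induced by growth factor signalling and block it between the receptor and ERK. Spry2 read 303.8 in ATCE1-C-del cells and 206.8 in empty vector cells on its brighter probe set, a log2 ratio of 0.55 (1.47-fold higher), just short of the 1.5-fold size. Among 1808 genes of like mean signal, a comparison also chosen after the data were seen, the middle 95% ran from -0.47 to 0.44. Of these genes 0.774% were at least 1.5-fold higher, a size that Spry2 did not reach. Its second probe set lay far under the floor on both arrays, at 18.2 and 9.1, and cannot check the first. Spry4 was not measured. Its 2 probe sets read 12.2 against 4.1 and 1.0 against 2.5, with ATCE1-C-del first, all far under the floors, so the comparison with the phosphatases rests on Spry2.

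In order of log2 ratio the measured genes ran Dusp6, Spry2, Dusp14, Dusp11, Dusp7, Dusp16, Dusp1 and Dusp3. The gap between Dusp6 and Spry2 was 0.05, and the widest gap between neighbours was 0.22, between Spry2 and Dusp14. The probe set SD gives 0.28 for a difference of 2 genes, and no gap between neighbours exceeded it. Dusp11 stands in place 4 by its brighter probe set, in place 7 by the mean of its probe sets, and last by its other probe set. The order among neighbours is therefore within the spread between probe sets. Nearest the 1.5-fold size were Dusp6, just inside it, and Spry2, just outside. Other genes of the set whose products can act on ERK stood lower, Dusp7 at 0.29, Dusp1 at 0.07 and Dusp3 at -0.13. The phosphatases of the set without the Sprouty genes had a median log2 ratio of 0.29 over 7 genes.

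**Figure D3:**
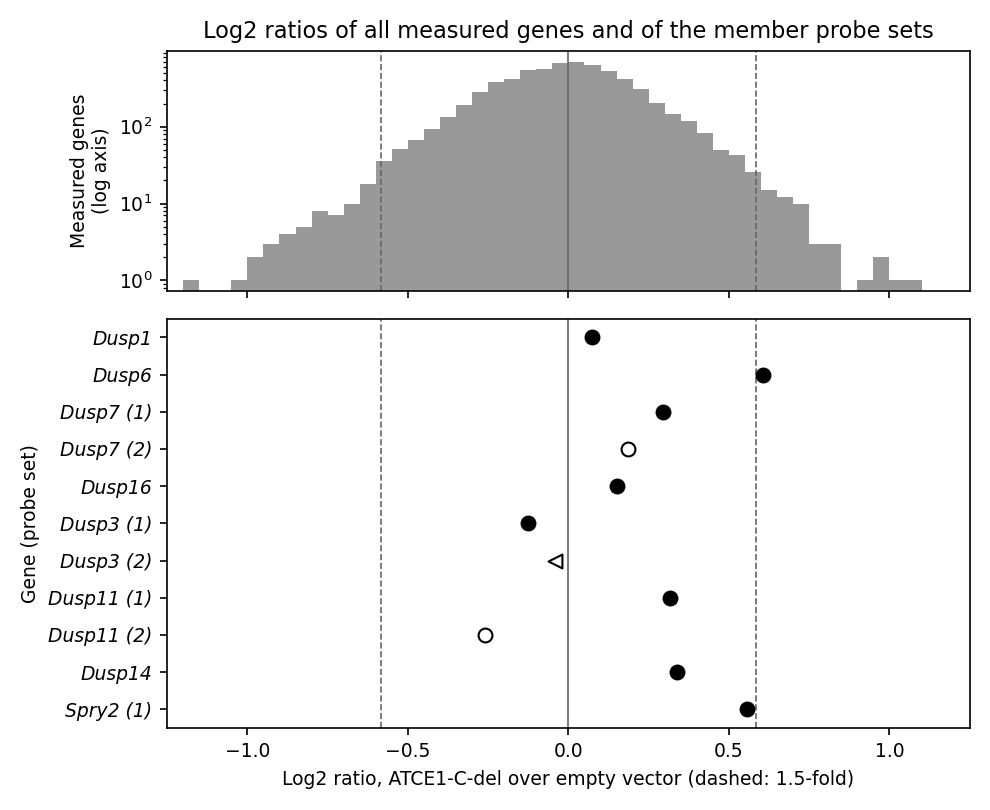
Top, the number of measured genes (log axis) by log2 ratio, ATCE1-C-del over empty vector, with a few genes beyond the high end of the axis not drawn. Bottom, the 11 measured probe sets on the same axis, filled for the brightest of each gene and open for others, a triangle marking a bound; dashed lines are 1.5-fold, and only Dusp6 lies past one.

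The genes around these phosphatases were taken from lists, with those past 1.5-fold and the 3 brightest of each list named. Of 25 other dual specificity or related phosphatase genes, 15 had a probe set and 6 were measured, with 3 above 0, 3 below, a median log2 ratio of -0.02 and 0 past 1.5-fold. The brightest were Ptpmt1, a mitochondrial lipid phosphatase gene, at 0.22, Dusp12 at 0.18, and Dusp10, which encodes a JNK and p38 phosphatase, at -0.23. The remaining 3, Dusp19 at 0.29, Styx at -0.34 and Dusp22 at -0.42, are named after their values were seen. These 6 lay on both sides of 0. The count depended on the floor. At the 25th percentile 13 were measured, with 10 above 0 and a median of 0.29. Of these 13, 5 were at least 1.5-fold higher, where 8.06% of all 9949 genes measured at that floor were. All 5 were under the median floor on both arrays. At the 75th percentile 3 were measured, with a median of 0.18. At the median floor used here, the inducible MAP kinase phosphatase gene Dusp2, also named after its values were seen, was under the floor at 25.1 and 24.5.

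The list of other inhibitors between receptor and ERK held 18 measured genes, with 0 past 1.5-fold and a median of 0.02. It includes the closest relatives of the Sprouty genes. Spry1 lay under the floor at 72.5 in ATCE1-C-del cells and 56.5 in empty vector cells. Spred1, a Sprouty-related inhibitor of Ras, had a log2 ratio of 0.12 on its brightest probe set, and Spred2 read 406.5 on both arrays. These relatives were named for their kinship with Spry2 after their values were seen. The 3 brightest were Pebp1, which encodes an inhibitor of Raf, at 0.10, the phosphatase subunit gene Ppp2ca at 0.13 and Dab2, which encodes an adaptor, at 0.05, with other probe sets of Dab2 at -0.30 and 0.20.

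The ERK cascade list had 17 measured genes and a median of -0.001. None was at least 1.5-fold higher (0 of 17), and 1 was at least 1.5-fold lower, Gab1, which encodes a docking protein that links receptors to Ras. Gab1 read 79.4 against 119.4, a log2 ratio of -0.59, and -0.17 on its second probe set. The brightest members Mknk2, Lamtor3 and Shc1 stood at 0.08, -0.09 and -0.08. Of 15 measured genes of the JNK and p38 cascades, 0 passed 1.5-fold, and the median was -0.04. Tab2, which encodes an adaptor of a kinase that can start these cascades, stood at -0.10. The p38 kinase gene Mapk14, whose product Dusp1 and Dusp16 dephosphorylate, stood at -0.13 on its brightest probe set and at 0.07 and 0.20 on others. Map2k3, which encodes a p38 activator, stood at 0.29, and its other probe set at 0.33. The JNK genes Mapk8 and Mapk9, named for their role after the values were seen, stood at 0.06 and -0.06. The small medians of these lists changed sign with the scaling, that of the JNK and p38 list only with the hybridisation controls. Scaling to the hybridisation controls moved the medians to between 0.21 and 0.27, close to the 0.24 of all genes.

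The last list holds genes that ERK signalling induces, as it does Dusp6 and Spry2. Of 26 with a probe set, 20 were measured, 15 of them above the floor on both arrays. The other 5, Fos, Maff, Etv5, Hbegf and Lif, reached it only on the ATCE1-C-del array and so could only be above 0. Of the 15, 13 were above 0 and 3 were at least 1.5-fold higher, with a median log2 ratio of 0.38. Over all 20, 4 were at least 1.5-fold higher and 0 lower, with a median of 0.35, where 0.926% of all measured genes were higher at that size and 48.7% lay above 0. The 4 became 2 with the mean of all probe sets, where 0.735% of all measured genes were at least 1.5-fold higher. With the floor at the 75th percentile 1 of 10 was (0.244% of all measured genes), and at the 25th percentile 12 of 26 (8.06%). The 15 genes above the median floor on both arrays keep their ratios at that lower floor, and 3 of them are among the 12. The rest of the 12 were under the median floor on at least 1 array. With no floor 6 of 20 were at least 1.5-fold higher (1.45%), and with log2 of signal plus 32 also 6 (0.691%). With scaling to the hybridisation controls 10 were (5.98%). The 4 first counted were Plaur, Hmga2, Fosl1 and Fos. Plaur, the urokinase receptor gene, read 164.6 against 82.2, and Hmga2, which encodes a chromatin protein, stood at 1.67-fold. The AP-1 subunit genes Fosl1 and Fos stood at 1.75-fold and at least 1.64-fold. Further probe sets read at least 0.04 in log2 ratio for Fosl1 and 0.16 and 0.66 for Hmga2. Jun and the cyclin gene Ccnd1, among the 3 brightest with Hmga2, stood at 0.12 and 0.33. The list was written with earlier results of these arrays known and is no independent evidence of a direction. Relative to all measured genes its median was 0.36 higher, and that of the 8 phosphatase and Sprouty genes 0.31 higher. With the mean of all probe sets these differences were 0.33 and 0.20. With the floor at the 75th percentile they were 0.25 and 0.07.

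**Figure D4:**
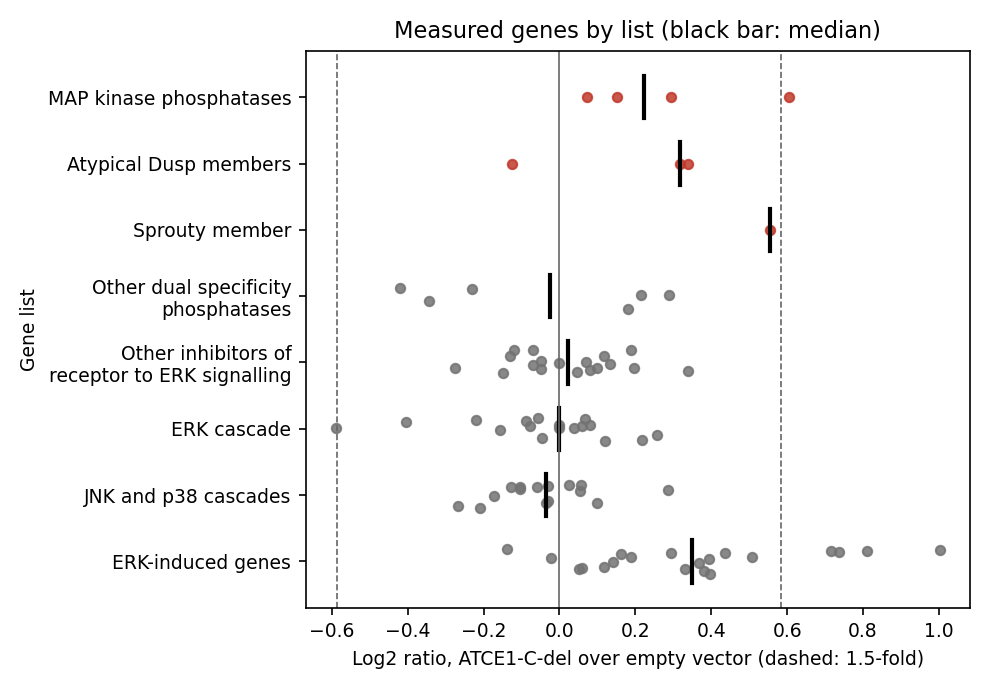
Log2 ratio (ATCE1-C-del over empty vector) for every measured gene of 8 lists, 1 point per gene, red for the phosphatase and Sprouty genes of the set, with a black bar at each list's median and dashed lines at 1.5-fold. The ERK-induced genes and the 3 red groups have medians from 0.22 to 0.55 at the median floor. The medians of the other 4 lists lie between -0.04 and 0.02 there. The red groups hold only 4, 3 and 1 measured genes. The median of the 3 atypical genes, 0.32, is the value of Dusp11's brighter probe set, and no direction is given for Dusp11. The Sprouty value is Spry2 alone. A floor at the 25th percentile moves the median of the other dual specificity phosphatases to 0.29.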

How the data were processed

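The deposited intensity values are MAS5 signals per probe set, per the submitters' processing notes, which name no version and, as used here, no detection calls, masks or scaling target. From the values, leaving out the highest and lowest 2% of the 22690 probe sets gave both arrays a mean of 250.1. The 64 control probe sets stayed out. Of the rest, 20380 had 1 symbol in the platform annotation, 691 several and 1555 none. All 9 genes found matched the RefSeq table of GRCm38.p6 by Entrez ID with 0 changes of symbol.

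Signals were divided by that mean, floored at the array's median and compared as a log2 ratio, with a gene represented by its brightest probe set over both arrays. With 1 array per group there was no test, a call was 1.5-fold, and the number of arrays limits the precision. Samples were grouped by title. The 10 genes, the lists and the alternatives were chosen with earlier results of these data known. All 10 genes were to be named, with every probe set, and of each pathway list the genes past 1.5-fold and the 3 brightest. The steps were tested on simulated data with 3-fold changes, placed in genes brighter than any measured gene of the set. That simulation does not cover 1.5-fold changes or genes as dim as these. The 13 alternatives covered scaling (as deposited, medians, quantile, lowess with a span of 0.3, hybridisation controls), floor, a pseudocount of 32, fold size and probe sets. Python 3.11.15, numpy 2.4.6, pandas 2.3.3, statsmodels 0.14.6 and matplotlib 3.10.9 were used.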

Additional observations from a re-analysis of the deposited data

How the results depend on the processing

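The number of the 8 measured genes at least 1.5-fold higher, 1 (Dusp6), was 0 with array medians, with the floor at the 75th percentile, with log2 of signal plus 32 and at 2-fold, 2 with scaling to the hybridisation controls (Dusp6 and Spry2) and 3 at the lower size of 0.322 in log2 ratio. It was Dusp6 alone under the other 7 of 13 alternatives. Among these 7, the 25th percentile floor measured 9 genes of the set. Leaving out probe sets that can match several transcripts measured 5. The number at least 1.5-fold lower was 0 under all 13. The median log2 ratio was above 0 under all 11 alternatives that recompute it, and moved by more than 0.20 to 0.55 with the hybridisation controls and to 0.058 under the 75th percentile floor, where 4 genes were measured and Dusp6 and Spry2 were not among them. Dusp6 ran from 0.48 to 0.85 and Spry2 from 0.49 to 0.80 over the 10 alternatives that measured them. Leaving out Dusp11, chosen after the data were seen, gave 1 higher, 0 lower and a median of 0.29. The causes were not tested, except that the higher floor leaves fewer genes. Over all measured genes, the counts of 63 higher and 73 lower became 407 and 13 with the hybridisation controls, 802 and 278 with the floor at the 25th percentile, 9 and 19 at the 75th, 99 and 93 with no floor, 47 and 36 with log2 of signal plus 32, 50 and 47 with the mean of all probe sets, 455 and 537 at the lower size and 5 and 2 at 2-fold. The number of measured genes itself was 9949 at the 25th percentile floor and 3690 at the 75th, against 6806 at the median floor. With 1 array per group no replicate could be left out. No paired analysis was possible because each group has 1 array and no test was made.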
